A study of Mus musculus with 32 samples.

Results

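The acute-phase protein genes described here were 10 genes chosen by name: Saa1, Saa2, Saa3, Hp, Orm1, Orm2, Lcn2, Apcs, Fgb and Hpx. All 10 were listed in each of the 4 tissue tables, among 24646 named genes, and all 10 entered the reported fits, which had no filter on low values. RNA was measured on Affymetrix Mouse Gene 2.1 ST arrays in liver, epididymal white fat (eWAT), inguinal white fat (iWAT) and interscapular brown fat (BAT), with 4 mice per genotype in each tissue and 32 arrays in all. The 2 genotypes of male C57BL/6J mice compared were Gpr146 knockout (KO, Gpr146-/-), in which the orphan G protein-coupled receptor GPR146 was removed from the whole body, and wild-type littermates (WT, Gpr146+/+). Every mouse was 20 weeks old, had spent 3 months on a high fat diet and was fasted overnight before the tissues were taken, so WT mice also carried the effects of the diet and the fast, and a gene's change in one tissue cannot be assigned to loss of the receptor in that tissue.

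Acute-phase proteins are plasma proteins whose output from the liver rises during inflammation. Interleukin-6 acts on hepatocytes through the JAK kinases and the transcription factor STAT3, interleukin-1 and tumor necrosis factor act through NF-kB, and C/EBP factors bind many of the target promoters. Serum amyloid A proteins (Saa1, Saa2 and Saa3) travel on high-density lipoprotein or stay near the cells that make them. Haptoglobin (Hp) and hemopexin (Hpx) bind hemoglobin and heme, the orosomucoids (Orm1 and Orm2) carry lipophilic ligands, lipocalin 2 (Lcn2) binds iron-loaded siderophores, serum amyloid P (Apcs) is a pentraxin, and Fgb encodes the fibrinogen beta chain. Adipocytes also express Hp and Orm1, and Saa3 and Lcn2 are expressed by several cell types outside the liver, macrophages among them.

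The promoters of genes whose values are set side by side in liver or in fat are shown first because the results below return to them. RefSeq windows of the mouse genome (GRCm38.p6) were at hand for 8 of the 10 genes, not for Hp and Orm1, and for Orm3, the neighbor of Orm2. Lines hold bases before the start, 5′ to 3′ on the strand of the gene, 250 for Saa2, Orm2 and Lcn2 and the 161 outside the annotated gene for Orm3, and capitals mark matches to the C/EBP motif TTGCNNAA on either strand. Saa2 lies at chr7:46751583-46751832 on the plus strand, Orm2 at chr4:63362199-63362448 on the plus strand, Orm3 at chr4:63355908-63356068 on the plus strand and Lcn2 at chr2:32387740-32387989 on the minus strand.
Saa2: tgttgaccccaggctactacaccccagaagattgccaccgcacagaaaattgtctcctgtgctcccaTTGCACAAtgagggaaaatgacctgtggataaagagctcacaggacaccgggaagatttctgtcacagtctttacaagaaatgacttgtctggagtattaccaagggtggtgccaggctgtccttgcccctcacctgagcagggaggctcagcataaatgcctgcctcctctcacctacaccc
Orm2: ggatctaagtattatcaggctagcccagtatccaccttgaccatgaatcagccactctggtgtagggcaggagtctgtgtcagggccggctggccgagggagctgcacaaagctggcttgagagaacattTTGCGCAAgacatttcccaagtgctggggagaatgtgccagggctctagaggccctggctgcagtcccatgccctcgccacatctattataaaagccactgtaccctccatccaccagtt
Orm3: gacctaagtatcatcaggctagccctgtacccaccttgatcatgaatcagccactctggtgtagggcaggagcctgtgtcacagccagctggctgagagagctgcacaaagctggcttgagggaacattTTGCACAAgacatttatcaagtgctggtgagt
Lcn2: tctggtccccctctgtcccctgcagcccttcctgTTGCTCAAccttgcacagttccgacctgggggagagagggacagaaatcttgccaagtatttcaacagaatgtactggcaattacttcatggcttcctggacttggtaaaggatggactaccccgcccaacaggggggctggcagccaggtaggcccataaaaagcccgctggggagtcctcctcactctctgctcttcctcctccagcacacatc

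The C/EBP motif was found in 7 of the 8 member windows, those of Saa1, Saa2, Saa3, Orm2, Lcn2, Fgb and Hpx, and in 9.56% of all 32851 promoter windows of the same length. Apcs was the member without it. The match began 182 bases before the start in Saa1, 183 in Saa2, 120 in Orm2, 121 in Orm3 and 216 in Lcn2. Saa1 and Saa2, which face away from each other, had identical bases over 94.8% of their aligned windows, and Orm2 and Orm3 over 85.9%. The windows of Saa1, Saa3 and Orm3 precede starts inside the annotated genes, which cover 201, 250 and 89 of their 250 bases, so those of Saa1 and Saa3 are not printed. The Saa3 match began 99 bases before its start. A STAT3 motif (TTCNNNGAA) was present in the windows of Apcs and Fgb and in 7.02% of all windows, an NF-kB motif (GGNNNTTCC) in those of Saa3 and Fgb and in 15.7% of all windows, and the HNF1 motif GTTAATNA in none of the 8 and in 2.33% of all windows, both strands being searched for each. In Fgb the NF-kB match began 157 bases and the STAT3 match 162 bases before the start, so those matches share bases. Such matches describe letters and not bound sites.

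Values are log2 expression values, 1 per gene and array, which were deposited after normalization within each tissue. The tables hold no detection calls, so a low value gives no proof that a gene was on or off, and array number limits precision. Gpr146 itself was lower in every KO array than in every WT array of its tissue: liver 4.26 to 4.63 against 6.17 to 6.32, eWAT 3.63 to 4.63 against 5.32 to 6.05, iWAT 3.82 to 5.10 against 5.37 to 6.58 and BAT 3.82 to 4.69 against 5.10 to 5.60. Titles of the 4 KO liver samples name both genotypes while their other labels say KO, and these 4 arrays had the low Gpr146 values. Marker levels set some arrays apart. In iWAT, the mean of 10 B cell markers was 7.77, 7.72, 7.47 and 5.67 in WT 1, WT 2, KO 2 and KO 4 and between 3.25 and 3.61 in the other 4 arrays. In BAT, the mean of 10 skeletal muscle markers was 6.67, 7.54 and 7.72 in WT 2, WT 3 and KO 2 and at most 3.63 in the others. In eWAT, the mean of 12 macrophage markers was 8.74 to 8.87 in WT and 5.89, 8.53, 6.93 and 6.16 in KO 1 to KO 4, so that KO 2 was close to WT. Saa1 and Saa2, and the orosomucoid genes among themselves, are so alike that array probes can share signal, so values of these neighbors are not fully separate.

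The liver held the highest WT level of all 10 genes. Levels are given here as the log2 value minus the median of the gene's own array, because tables were normalized apart, and were not compared between genes. In WT mice Saa1 was at 7.51 ± 1.09 (SD, n = 4) in liver and between −1.85 and −1.36 on average in the 3 fat depots, and Fgb was at 8.22 ± 0.07 in liver and between −1.71 and −1.06 in fat. Saa2, Apcs and Hpx had the same form, with all 24 fat arrays below the array median. Hp was nearest to even across tissues: 8.48 ± 0.15 in liver, 7.37 ± 0.27 in BAT, 6.94 ± 0.14 in eWAT and 6.04 ± 0.84 in iWAT, where the liver did not overlap any depot and BAT and eWAT overlapped, as did eWAT and iWAT. Orm1 stood at 6.76 ± 0.33 in liver, 3.50 ± 0.35 in eWAT, 2.57 ± 0.34 in BAT and 1.90 ± 0.72 in iWAT. Lcn2 was at 5.13 ± 0.68 in liver, 1.42 ± 0.17 in eWAT, 0.29 ± 0.44 in iWAT and 0.16 ± 0.17 in BAT. Saa3 was at 4.18 ± 0.91 in liver, 0.93 ± 0.66 in eWAT, −0.37 ± 0.17 in BAT and −0.75 ± 0.39 in iWAT. Orm2 was at 5.71 ± 0.87, 1.42 ± 0.26, 0.18 ± 0.50 and −0.63 ± 0.45 in the same order. For Saa3, Orm1, Orm2 and Lcn2, eWAT did not overlap liver or the next depot, while BAT and iWAT overlapped. The liver stayed highest for all 10 genes on the deposited values and after all 32 arrays were quantile normalized together, whereas the order of the depots moved in at least 1 of these settings for all but Lcn2.

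**Figure D1:**
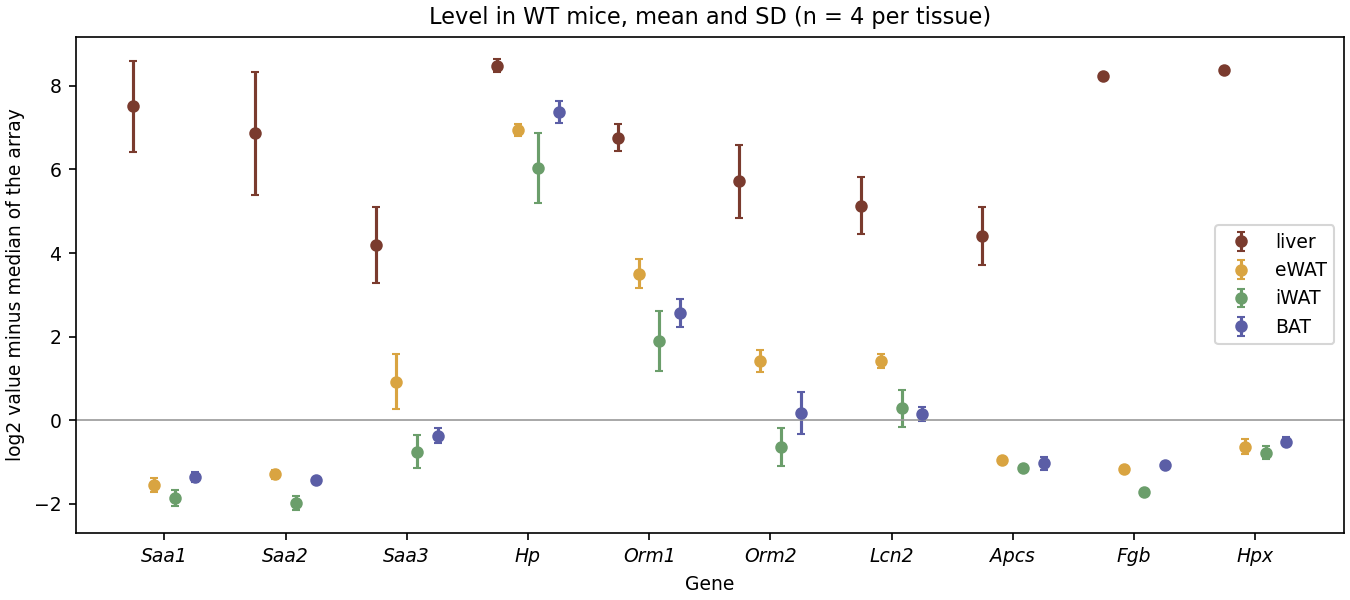
Level of each acute-phase protein gene in WT mice. The y axis is the log2 value minus the median of the array, points are means and bars SD of 4 mice, and colors are tissues; all 10 genes were highest in liver, and Hp was far above the array median in every tissue, at 6.04 or more.

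In liver, none of the 10 genes passed an adjusted p below 0.05 between KO and WT, in a test that called 163 of 24646 genes (0.661%). Changes are log2 KO over WT from limma, and the Benjamini-Hochberg adjustment of p took in all 24646 genes. At an unadjusted p below 0.05 there were 2 of the 10 members, Lcn2 and Saa3, beside 3271 of the 24646 genes. None of the 10 had groups that did not overlap, against 7.78% of all genes. The fitted change was below 0 for 9 of the 10 genes, with a median of −0.30, beside a median of 0.01 over all genes. These signs are not separate observations, because several of the genes were correlated over the same livers, as given below. For 7 of the 10 genes, all but Lcn2, Saa3 and Fgb, the change was smaller than the SD of the WT livers.

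Lcn2 had the lowest fitted change in liver. Its WT values were 8.36, 7.15, 8.31 and 8.76, and its KO values 8.12, 6.54, 6.47 and 6.56. KO 1 was inside the WT range, and the other 3 KO livers were below every WT liver. The change was −1.23 (SE 0.40, 95% interval −2.10 to −0.35, adjusted p = 0.209), and the two-sided exact permutation test gave p = 0.0571, where 0.0286 is the smallest p that 4 against 4 mice allow. Saa3 was 6.49, 7.97, 6.32 and 7.99 in WT and 7.19, 6.52, 5.41 and 5.07 in KO. Here KO 3 and KO 4 were below every WT liver, and KO 1 and KO 2 were inside the WT range. Its change was −1.15 (95% interval −2.24 to −0.05, adjusted p = 0.352, exact permutation p = 0.171). For Orm2 the values were 9.22, 7.46, 8.82 and 9.39 in WT and 9.27, 7.14, 7.93 and 7.22 in KO. That is a change of −0.83 (95% interval −1.91 to 0.25, adjusted p = 0.512, exact permutation p = 0.286). In the same livers, 8 of 12 macrophage markers had changes below 0, with a median of −0.67 and a list mean of 4.42 to 4.71 in WT and 3.68 to 4.48 in KO; none of the 12 passed, and their part in the values of Lcn2 and Saa3 was not tested.

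Saa1 and Saa2, the serum amyloid A genes with the near-identical windows, varied far more between mice than between genotypes. Saa1 was at 10.96, 8.88, 10.98 and 11.25 in WT livers and 11.40, 9.49, 10.32 and 9.67 in KO livers. Saa2 was at 10.45, 7.67, 10.53 and 10.84 in WT and 11.03, 8.46, 8.89 and 8.52 in KO. The lowest liver for both genes was WT 2 and the highest was KO 1, and the 8 livers spanned 5.72-fold for Saa1 and 10.3-fold for Saa2. The changes between genotypes were −0.30 (95% interval −1.44 to 0.84) and −0.65 (95% interval −2.21 to 0.92), so the interval of Saa2 reaches from a fall of more than 2 log2 units to a rise. The remaining genes were tighter. Hp spanned 1.26-fold, Fgb 1.20-fold and Hpx 1.12-fold over the 8 livers, and their changes were −0.10 (95% interval −0.30 to 0.11), 0.12 (−0.04 to 0.28) and −0.06 (−0.21 to 0.10). For Fgb, 3 KO livers were above every WT liver, and the exact permutation test gave p = 0.0571, the same p as for Lcn2 in the other direction. Orm1 changed by −0.25 (95% interval −0.72 to 0.21). Apcs was at 6.98, 7.08, 7.13 and 8.46 in WT and 7.32, 6.58, 6.92 and 7.61 in KO, a change of −0.30 (95% interval −0.998 to 0.39) that turned to 0.05 without WT 4.

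Several of the genes had high correlations with Saa1 from liver to liver. Among the members, those of Saa2 and Hp passed after adjustment by Pearson's r, and that of Saa2 alone by Spearman's rho. Over the 8 livers, relations of Saa1 with 100 other genes were computed, the other 9 members and 91 genes of the acute-phase lists named further on, with exact permutation p-values over all pairings adjusted over the 100. Saa2 followed Saa1 (Pearson's r = 0.98, exact p = 2.5e-05, adjusted p = 0.00248; Spearman's rho = 1, exact p = 5.0e-05, adjusted p = 0.00496), which the shared sequence of these genes can raise. Hp followed Saa1 with r = 0.94 (exact p = 0.00119, adjusted p = 0.0397) and rho = 0.86 (exact p = 0.0107, adjusted p = 0.153). Orm2 had r = 0.93 (exact p = 0.00308, adjusted p = 0.0699) and rho = 0.88 (exact p = 0.00724, adjusted p = 0.121), and Orm1 had r = 0.91 (exact p = 0.0035, adjusted p = 0.0699) and rho = 0.95 (exact p = 0.00114, adjusted p = 0.057). Without the 2 livers farthest from the median of Saa1, WT 2 and KO 2, r was 0.97 for Saa2, 0.87 for Hp, 0.98 for Orm2 and 0.93 for Orm1. Taken as deviations from the mean of each genotype, r was 0.99, 0.96, 0.97 and 0.92 for these genes, and 0.92 for Lcn2, whose r over raw values was 0.78 (exact p = 0.036, adjusted p = 0.277; rho = 0.62, exact p = 0.115, adjusted p = 0.719).

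The relation with Saa1 of the 4 other members did not pass after adjustment, as was also so for Orm1, Orm2 and Lcn2. It was r = 0.11 for Saa3 (exact p = 0.783, adjusted p = 0.965; rho = 0.19, exact p = 0.665, adjusted p = 0.995), which was high in WT 2 where Saa1 was lowest; without WT 2 and KO 2 the same r was 0.89, so the value rests on those livers. It was 0.16 for Fgb (exact p = 0.69, adjusted p = 0.965; rho = 0.33, exact p = 0.428, adjusted p = 0.871), 0.40 for Apcs (exact p = 0.337, adjusted p = 0.86; rho = 0.52, exact p = 0.197, adjusted p = 0.81) and 0.76 for Hpx (exact p = 0.0345, adjusted p = 0.277; rho = 0.62, exact p = 0.115, adjusted p = 0.719), with r = 0.80 for Hpx as deviations from the mean of each genotype. Without WT 2 and KO 2, r was −0.48 for Fgb, 0.16 for Apcs, 0.73 for Hpx and 0.88 for Lcn2. Of the 91 other genes, 1 passed after adjustment, Serpina3n, a serine protease inhibitor of the acute-phase response (r = 0.92, exact p = 0.000818, adjusted p = 0.0397; rho = 0.93, exact p = 0.00223, adjusted p = 0.0744; r = 0.75 without the 2 livers). Il6 did not pass, with r = 0.76 (exact p = 0.0243, adjusted p = 0.277) and rho = 0.83 (exact p = 0.0154, adjusted p = 0.192). Larger r without passing were those of C3 (0.87), Itih4 (0.80) and Creb3l3 (0.79). The other inducing cytokines named above had r of 0.13 (Il1b), 0.08 (Il1a) and −0.21 (Tnf). The part of any cytokine in the Saa1 values was not tested.

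**Figure D2:**
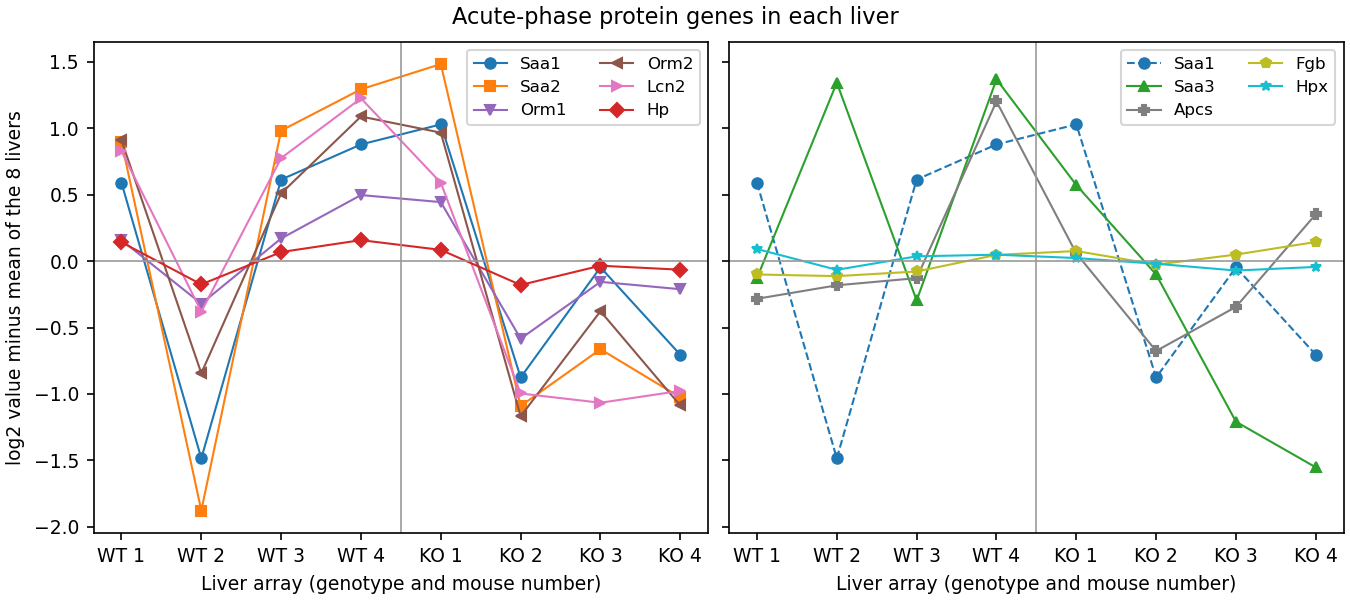
Acute-phase protein genes in each of the 8 livers. The x axis gives genotype and mouse number, the y axis the log2 value minus the gene's mean over the 8 livers. In the left panel Saa1, Saa2, Orm1, Orm2, Lcn2 and Hp lie below their means together in WT 2, KO 2, KO 3 and KO 4. In the right panel Saa3 is high in WT 2 while Saa1 (dashed) is lowest there, and Fgb and Hpx stay near 0.

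In eWAT, 2 of the 10 genes were lower in KO mice at an adjusted p below 0.05, Lcn2 and Saa3, and none was higher. The same test called 15.2% of all genes, 10.7% as lower and 4.57% as higher in KO, so 2 of 10 is near the background of this tissue. Of the 10, 1 gene (Lcn2) had groups that did not overlap, against 21.6% of all genes. The median change of the 10 genes was 0.01, beside 0.03 over all genes. In whole tissue, fewer cells of a type and less RNA per cell cannot be told apart.

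Lcn2, the siderophore binder, was at 4.49, 4.76, 4.40 and 4.65 in WT fat pads and 3.77, 4.02, 3.91 and 4.07 in KO fat pads. Every KO value lay below every WT value. The change was −0.63 (SE 0.10, 95% interval −0.87 to −0.40, 1.55-fold lower, adjusted p = 0.00971), and the two-sided exact permutation test gave p = 0.0286, the smallest it can give. This call held without each of the 8 arrays in turn (adjusted p 0.00309 to 0.037) and was lost in the methods' t-test (adjusted p = 0.0628). Saa3 was at 3.09, 4.34, 4.52 and 4.37 in WT and 2.58, 3.20, 3.38 and 2.85 in KO. WT 1 was inside the KO range, and the other 3 WT pads were above every KO pad. Saa3 fell by 1.08 (95% interval −1.77 to −0.39, 2.11-fold, adjusted p = 0.0433, exact permutation p = 0.0857). It was below the array median on 3 of the 8 arrays, and its mean level against that median was 0.93 in WT and −0.15 in KO. The Saa3 call was lost without WT 2 (adjusted p = 0.12), WT 3 (0.113), WT 4 (0.118), KO 1 (0.106) or KO 4 (0.102). The fits without those arrays called 1448 to 2208 of all genes, against 3758 with all arrays. Saa3 was also lost in the methods' t-test (0.136).

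The orosomucoid genes, which lie side by side on chromosome 4, did not move alike in eWAT. Orm1 was at 6.68, 6.24, 7.11 and 6.60 in WT and 7.04, 6.97, 5.98 and 6.62 in KO, with a change of −0.01 (95% interval −0.56 to 0.55). Orm2 was at 4.55, 4.29, 4.54 and 4.94 in WT and 3.02, 4.99, 3.22 and 3.55 in KO. KO 2 had the highest Orm2 value of the 8 pads, and the other 3 KO pads were below every WT pad. Its change was −0.89 (95% interval −1.73 to −0.04, adjusted p = 0.149), and without KO 2 it was −1.32 (adjusted p = 0.000544). The fit without KO 2 called 5429 of all genes in eWAT, against 3758 with all arrays. Orm3, from the list of other induced plasma proteins, was at 3.97, 2.20, 3.75 and 3.64 in WT and 5.87, 4.73, 6.44 and 5.52 in KO. All KO pads were above all WT pads. Orm3 rose by 2.25 (SE 0.43, 95% interval 1.28 to 3.22, 4.76-fold, adjusted p = 0.0126), a call that held without each array in turn (adjusted p 0.00176 to 0.0398) and not in the methods' t-test (0.0746). The promoter windows of Orm2 and Orm3 printed above both hold the C/EBP motif, with TTGCGCAA in Orm2 and TTGCACAA in Orm3. Hp was at 10.11, 9.92, 10.29 and 10.05 in WT and 10.46, 9.91, 9.78 and 10.37 in KO, with a change of 0.04 (95% interval −0.32 to 0.40). Saa1, Saa2, Apcs, Fgb and Hpx were below the array median on all 8 eWAT arrays, and their changes were between −0.01 and 0.16.

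**Figure D3:**
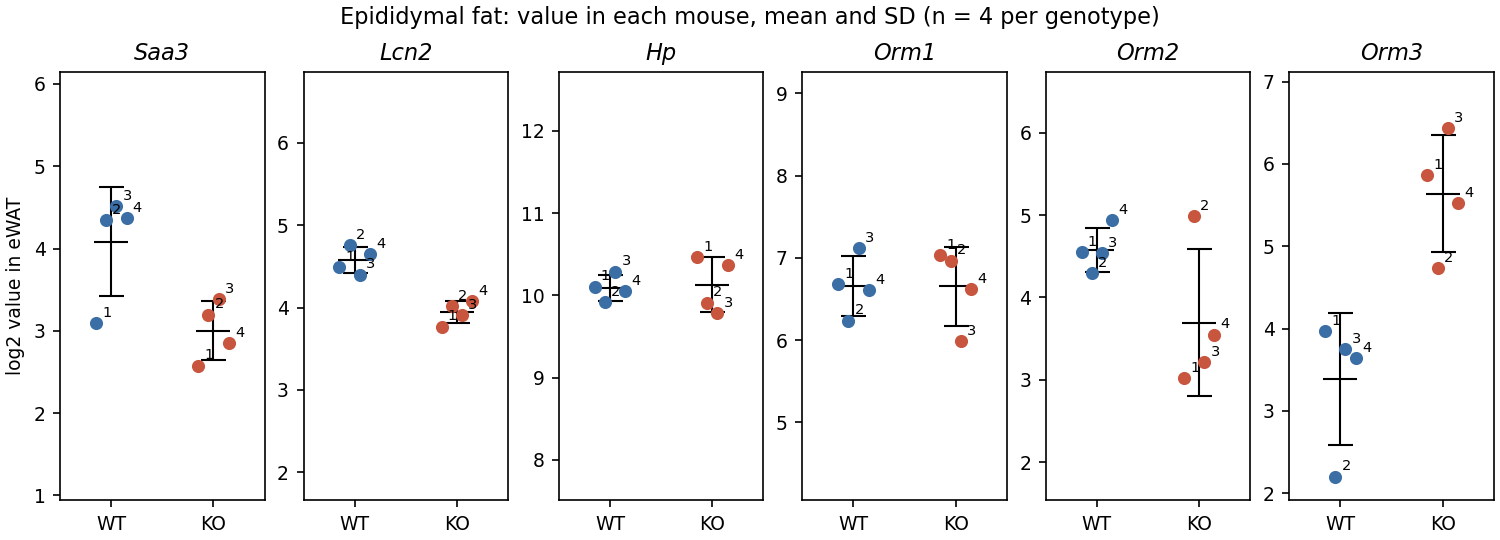
Epididymal fat. The y axis is the log2 value, each panel spanning the same number of log2 units, points are mice labeled by number, and bars are mean and SD of 4 mice; Lcn2 separates WT from KO downward and Orm3 upward, WT 1 sits low for Saa3 and KO 2 high for Orm2, and Hp and Orm1 overlap.

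Marker genes of other cells moved with these changes in eWAT. Of 12 macrophage markers, 10 were lower in KO and none was higher, with Trem2 from 8.58 to 5.46 and Itgax from 7.93 to 5.24 between the group means. Of 10 fibroblast and adipose progenitor markers 9 were lower (list mean 7.90 to 8.28 in WT and 6.74 to 7.74 in KO), and of 10 mesothelial markers 4 were lower (4.47 to 5.80 and 4.19 to 4.48). Of 12 adipocyte markers, 10 were higher and 1 was lower (9.09 to 9.43 and 9.70 to 10.1). Neutrophils, which store lipocalin 2 in granules, were represented by 12 markers with a list mean of 2.14 to 2.29 in WT and 2.25 to 2.40 in KO, below the lowest array median of 3.13, with S100a8, Ly6g, Camp and Ngp at 2.24 or less in both group means; 1 of the 12, Mpo, was called, and as higher. Hepatocyte markers had a list mean of 2.45 to 2.63 in WT and 2.47 to 2.70 in KO. KO 2, the pad with macrophage markers near the WT level, had Lcn2 at 4.02 and Saa3 at 3.20, within the range of the other KO pads. Without that pad the Lcn2 change was −0.66 (adjusted p = 0.00309) and the Saa3 change −1.14 (adjusted p = 0.0384). The part of macrophage, fibroblast, mesothelial and adipocyte content in the changes of Lcn2, Saa3 and Orm3 was not tested.

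In iWAT none of the 10 genes passed, nor did any of the 24646 genes (0% called by limma at an adjusted p below 0.05; 3803 had an unadjusted p below 0.05), and the groups overlapped for all 10, against 8.15% of all genes without overlap. Saa3 was at 2.49, 2.74, 3.31 and 3.17 in WT and 2.58, 2.52, 2.34 and 2.18 in KO. KO 3 and KO 4 were the lowest, and WT 1 was inside the KO range. Its change was −0.52 (95% interval −0.94 to −0.10, adjusted p = 0.265). All 12 macrophage markers had changes below 0 in iWAT, with a median of −0.90 and a list mean of 6.58 to 7.47 in WT and 5.65 to 6.71 in KO; none of the 12 passed, and their part in the Saa3 value was not tested. Without the 4 arrays that stood out for B cell markers, which left 2 mice per genotype, Saa3 was −0.78 (adjusted p = 0.0504) and Hp −0.97 (adjusted p = 0.107), while 916 of all genes were then called. Hp was at 9.12, 9.06, 9.90 and 10.81 in WT and 9.48, 9.11, 9.29 and 9.51 in KO, and the 2 low WT values were the WT arrays with B cell markers. With all arrays the Hp change was −0.37 (95% interval −1.16 to 0.41), that of Lcn2 −0.33 (−0.80 to 0.13) and that of Orm1 0.32 (−0.40 to 1.04). The 7 members Saa1, Saa2, Saa3, Orm2, Apcs, Fgb and Hpx were below the array median on all 8 iWAT arrays.

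In BAT none of the 10 genes passed either, where 7 of all genes (0.0284%) were called, and none of the 10 had groups without overlap, against 7.23% of all genes. Orm1 was at 5.58, 5.75, 5.30 and 4.97 in WT and 6.10, 6.50, 5.68 and 5.98 in KO. KO 1, KO 2 and KO 4 were above every WT value and KO 3 was below WT 2. The change was 0.66 (95% interval 0.23 to 1.10, adjusted p = 0.199, exact permutation p = 0.0571), and 0.64 (adjusted p = 0.646) without the 3 arrays that carried muscle markers. Orm3 was at 4.75, 4.88, 4.65 and 4.45 in WT and 4.89, 4.96, 5.48 and 5.41 in KO, with a change of 0.50 (adjusted p = 0.206). The other 9 members had changes between −0.19 and 0.20. Lcn2 changed by −0.07 (95% interval −0.38 to 0.25) and Saa3 by −0.08 (−0.33 to 0.17).

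**Figure D4:**
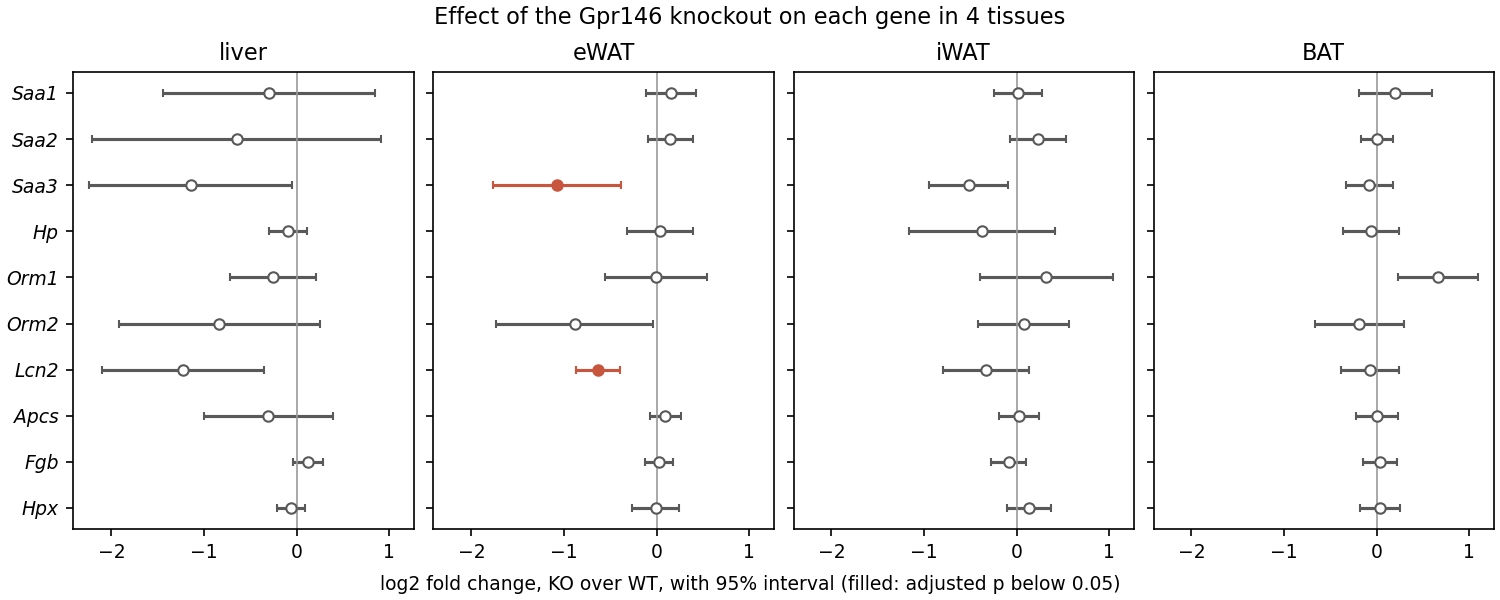
Effect of the knockout on each gene in the 4 tissues. The x axis is the log2 fold change of KO over WT from limma with its 95% interval, and filled points passed an adjusted p below 0.05; Saa3 and Lcn2 in eWAT are the filled points, and the liver intervals of Saa1, Saa2, Saa3, Orm2 and Lcn2 are wide.

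Whether the effect of the knockout differed between eWAT and another tissue was tested on the difference between tissues of the same mouse number, by limma over all genes. None of the 10 genes passed against liver (8.37% of all genes called), against iWAT (0% called; 2651 genes had an unadjusted p below 0.05) or against BAT (6.93% called). The call of Lcn2 and Saa3 in eWAT and its absence elsewhere is therefore not shown to be a difference between tissues. For Saa3 the effect in eWAT was lower than in BAT by −0.999 (95% interval −1.73 to −0.27, adjusted p = 0.106) and differed from that in liver by 0.07 (−1.16 to 1.30). For Lcn2 the values were −0.57 against BAT (−0.98 to −0.15, adjusted p = 0.109), −0.30 against iWAT (−0.79 to 0.18) and 0.59 against liver (−0.42 to 1.61). Orm1 differed from BAT by −0.67 (−1.25 to −0.08, adjusted p = 0.179). The Saa3 difference from BAT passed without WT 1 (−1.34, adjusted p = 0.0266) and with the mouse number as a replicate block (−0.999, adjusted p = 0.0156), and the Lcn2 difference from BAT passed without KO 4 (−0.73, adjusted p = 0.038). The Orm2 difference from iWAT passed without KO 2 (−1.38, adjusted p = 0.0479). Orm3, named here after its values were seen, had an effect in eWAT above that in liver by 2.94 (SE 0.40, adjusted p = 0.00493), above that in BAT by 1.75 (adjusted p = 0.0358) and above that in iWAT by 1.66 (adjusted p = 0.224). The difference from liver held without each array in turn, and that from BAT held in 1 of 8 such fits, the one without KO 2.

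Genes that induce the response or carry its signals were read from lists of pathway genes. Counts on these lists stand beside 15.2% of all genes called in eWAT (10.7% lower, 4.57% higher) and 0.661% in liver. Of 18 cytokines and receptors, 6 were lower in KO eWAT and none was higher: Tnfrsf1b (−1.35, adjusted p = 0.022) and Tnfrsf1a (−0.40, 0.0136), the receptors of tumor necrosis factor, Tnf itself (−1.14, 0.0104), the interleukin-1 receptor Il1r1 (−0.99, 0.0234), the oncostatin M receptor Osmr (−0.82, 0.0123) and the interleukin-6 receptor Il6ra (−0.62, 0.0117). Their list had a median change of −0.11. Without KO 2 the same list had 6 lower and 2 higher genes, in a fit that called 5429 of 24646 genes. None of the 18 passed in liver, where Osm had the smallest p (0.34, adjusted p = 0.0934), in iWAT (Il6ra −0.80, 0.221) or in BAT (Tnfrsf1a −0.41, 0.125). Of 20 signalling and transcription factors, Cebpa, a C/EBP factor of adipocytes and hepatocytes, rose by 1.13 in eWAT (adjusted p = 0.00823). Bcl3, an NF-kB cofactor (−0.72, 0.00971), and the kinase Jak1 (−0.34, 0.0293) fell there. The calls among these 20 were near the share over all genes in eWAT. In liver, Bcl3 fell by 0.97 (adjusted p = 0.0144; 0.0533 without WT 3), and the other 19 did not pass. In iWAT and BAT none of these 20 passed, with Cebpa at 0.92 (adjusted p = 0.221) and Cebpb at −0.70 (0.136).

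The list of other induced plasma proteins held 31 genes and included Saa4, the constitutive serum amyloid A. It also included Vnn1, Steap4, Mt1 and Mt2, which encode proteins of cells. Not every gene on it is therefore an induced one or encodes a plasma protein. Of the 31, 3 were lower in KO liver: Vnn1, a pantetheinase of hepatocytes (−1.50, 2.84-fold, adjusted p = 0.00167), the metalloreductase Steap4 (−0.87, 0.0215) and Saa4 (−0.63, 0.0478). Saa4 was at 10.59, 10.31, 10.09 and 10.09 in WT and 9.68, 9.59, 9.83 and 9.45 in KO. All KO livers were below all WT livers, in contrast to its overlapping neighbors Saa1, Saa2 and Saa3, but its call was lost without any single array (adjusted p 0.0507 to 0.136). That of Steap4 was lost without WT 2, WT 3 or KO 4 (up to 0.0764). The list had a median change of −0.09 in liver and 0.02 in eWAT. Over all genes, 0.661% were called in liver and 15.2% in eWAT. In eWAT, 3 of the 31 fell, Il1rn, which encodes the interleukin-1 receptor antagonist (−1.86, 3.63-fold, adjusted p = 0.00981), the metallothionein Mt2 (−0.93, 0.0293) and complement C3 (−0.77, 0.037). Orm3 rose. These counts were near the shares over all genes in eWAT. In iWAT and BAT none of the 31 passed; the smallest p were those of Lbp (−1.68, adjusted p = 0.221) and Mt2 (−1.16, 0.221) in iWAT, and of Lrg1 (−0.68, 0.112) and Orm3 in BAT.

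Of 10 plasma proteins that fall in the response, none passed in liver, where Itih2 had the smallest p (0.20, adjusted p = 0.323). Over all genes in eWAT, 10.7% were called as lower and 4.57% as higher. In eWAT, Rbp4, a retinol carrier, rose by 1.28 (adjusted p = 0.00871) and transferrin (Trf) rose by 0.35 (0.0309). Ahsg fell by 0.55 (0.0206), from a group mean of 3.13 in WT, near the array medians, to 2.58 in KO, below all of them. Of 12 receptors and clearance proteins, 4 fell in eWAT and none rose: the heme oxygenase Hmox1, which degrades heme delivered by haptoglobin and hemopexin (−2.19, 4.56-fold, adjusted p = 0.00971), P2rx7 (−1.39, 0.012), the hemopexin receptor Lrp1 (−0.54, 0.0173) and Lrp2, which binds lipocalin 2 (−0.87, 0.0424). Cd163, the haptoglobin-hemoglobin receptor of macrophages, had a change of 0.14 (adjusted p = 0.72). In liver, Cd36, a scavenger receptor, fell by 1.74 (3.34-fold, adjusted p = 0.0144) and the other 11 did not pass. None of these 22 genes passed in iWAT or BAT, where Hmox1 was at −0.84 (adjusted p = 0.221) and −1.64 (0.125). Of the 20 pathway genes called in eWAT, 11 kept the call without each array in turn, namely Orm3, Il1rn, Rbp4, Tnf, Il6ra, Tnfrsf1a, Osmr, Cebpa, Bcl3, Hmox1 and P2rx7. In the methods' t-test none of the 20 passed (adjusted p 0.0617 to 0.13), nor did the 5 pathway genes called in liver, Vnn1, Steap4, Saa4, Bcl3 and Cd36 (0.14 to 0.248). The 9 others in eWAT were lost without at least 1 array, with an adjusted p of up to 0.0926 for C3, 0.0864 for Mt2, 0.0953 for Trf, 0.067 for Ahsg, 0.0742 for Il1r1, 0.0612 for Tnfrsf1b, 0.0813 for Jak1, 0.0531 for Lrp1 and 0.121 for Lrp2. The liver call of Cd36 was lost without WT 3 or KO 4 (up to 0.0581). Without KO 2, 5429 of 24646 genes were called in eWAT, 1924 as higher and 3505 as lower. In that fit, 2 of the 31 genes listed as induced were higher and 5 lower, and 3 of the 10 falling proteins were higher and 1 lower. Of the 20 factors 1 was higher and 4 were lower, and of the 12 clearance genes 1 was higher and 5 were lower. In eWAT these changes stood beside the marker shifts given above, whose part in them was not tested.

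The genes whose profile was most like that of Saa3 over the 8 arrays of a tissue differed between tissues. By Pearson's r they were Fam36a (0.97), Tbc1d7 (0.97) and Lsm3 (0.96) in liver, Fcer1a (0.99), Mesdc2 (0.95) and Hspa1a (0.94) in eWAT, 5430405H02Rik (0.97), Glb1l (0.96) and C5ar1 (0.96) in iWAT, and Pcp4l1 (0.97), Nkrf (0.97) and 1190003J15Rik (0.96) in BAT. With 24646 genes and 8 arrays, such values are a description of these arrays, and none of the named genes was an acute-phase protein.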

How the data were processed

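Total RNA (100 ng per sample, extracted with Trizol and biotin-labeled) was hybridized to 32 arrays. The authors deposited 1 table of log2 expression values per tissue, 1 value per gene symbol and array, already normalized within the tissue; the software and method were not given in the sources used here. Rows without a usable gene name (1 or 2 per table) were left out. The probe number was not whole for 840 genes in each table, as for a mean over several probe sets made before deposit; all members had a whole number. A compressed or shifted scale of a table would change its fold changes, and tables normalized apart allow no test of levels between tissues.

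KO was compared with WT within each table by limma (version 3.58.1, R 4.3.3; lmFit and eBayes) over all 24646 genes, the threshold being a Benjamini-Hochberg adjusted p of 0.05. Effects in eWAT and another tissue were compared on the same-mouse differences, mouse numbers being given per genotype in the labels. Exact tests ran over all 70 relabelings (scipy 1.17.1). The members and lists were chosen with earlier results of these data known. Genes were named as follows: the 10 members, Gpr146, of each list up to 5 called genes with the largest change (otherwise up to 2 with the smallest p), and the 3 genes most like Saa3; other called genes were added so that each count of 6 or fewer is named. Replicates were separate mice. The procedure was tested on simulated data. Alternatives were a trended robust prior, array weights, quantile normalization, equal medians, leaving out dim genes, a replicate block, the methods' t-test and each array left out; leaving out arrays with B cell or muscle markers (mean above 5) was chosen after seeing the data.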

Additional observations from a re-analysis of the deposited data

Results flagged for a closer look

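In 80 groups of 4 arrays (10 genes, 4 tissues, 2 genotypes), 8 held an array far from the other 3 by Dixon's criterion, which chance alone meets in about 1 of 20 groups. In liver, WT 2 was low for Saa1 (8.88, next 10.96) and Saa2 (7.67, next 10.45), KO 1 was high for Saa2 (11.03, next 8.89) and Lcn2 (8.12, next 6.56), and WT 4 was high for Apcs (8.46, next 7.13). In eWAT, WT 3 was low for Saa1 (1.38, next 1.66) and WT 1 was low for Saa3 (3.09, next 4.34). In iWAT, WT 2 was low for Hpx (2.69, next 2.95). Of the 8, 5 were in liver, and KO 1 and WT 2 account for 4 of these.

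The effect of the knockout on Orm3 differed by limma between eWAT and liver by 2.94 (adjusted p = 0.00493) and between eWAT and BAT by 1.75 (adjusted p = 0.0358). Orm3 was higher in KO in 4 of 4 eWAT pads than in any WT pad, and it was named after its values were seen. With each array left out, the difference from liver held in 8 of 8 fits and that from BAT in 1 of 8 (adjusted p up to 0.105). Neither passed in the methods' t-test (adjusted p = 0.0871 and 0.185).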

How the results depend on the processing

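No member was called in liver, iWAT or BAT in any alternative run, nor between eWAT and liver. In eWAT the count of called members (2) fell to 0 in the methods' t-test, which called 38 of all 24646 genes. The count lay between 1 and 3 when each array was left out in turn. Calls over all genes then ran from 1448 without WT 2 to 5429 without KO 2. For the members, array weights gave 3 and the other settings gave 2. The count whose effect differed between eWAT and BAT (0) was 1 with a replicate block and 0 to 1 when arrays were left out; between eWAT and iWAT it was 0 to 1 when arrays were left out. The mouse numbers shared by WT and KO were not taken to pair the mice, since correlations of same-numbered deviations over all genes ran from −0.38 to 0.67, with 8 of 16 over 0.1. The replicate block left 2 members called in eWAT and, apart from the difference between eWAT and BAT, changed no count. Liver had the highest WT level for 10 of 10 genes in each setting. Leaving out arrays rests on as few as 2 mice per genotype in iWAT.

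Of 40 changes (10 genes in 4 tissues), 16 changed sign in some alternative. None of the 16 was called, and none was larger than 0.32 in the reported fit. With array weights, Orm1 in eWAT was 0.11, Hpx in eWAT 0.036, Saa1 in iWAT −0.013 and Apcs in iWAT −0.0034. With quantile normalization, Orm1 in eWAT was 0.17, Fgb in eWAT −0.041, Saa1 in iWAT −0.055, Apcs in iWAT −0.061, Saa2 in BAT −0.027 and Apcs in BAT −0.027. With equal array medians, Saa1 in iWAT was −0.012, Saa2 in BAT −0.0088 and Apcs in BAT −0.0093. Without the arrays with B cell markers, Orm1 in iWAT was −0.055 and Fgb in iWAT 0.0099. With each array left out in turn, Apcs in liver ran from −0.47 to 0.045. In eWAT, Hp ran from −0.070 to 0.16, Orm1 from −0.15 to 0.22 and Hpx from −0.090 to 0.055. In iWAT, Saa1 ran from −0.056 to 0.073, Orm2 from −0.13 to 0.21 and Apcs from −0.016 to 0.076. In BAT, Saa2 ran from −0.027 to 0.038, Hp from −0.18 to 0.022, Lcn2 from −0.15 to 0.055, Apcs from −0.065 to 0.057, Fgb from −0.00076 to 0.068 and Hpx from −0.030 to 0.078. The cause was not tested.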
